A study of Mus musculus with 18 samples.

Results

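The water channel genes Aqp1, Aqp3 and Aqp4 were followed across sorted lung and tracheal cells. They encode aquaporins 1, 3 and 4 and were chosen by symbol, with no threshold on their values, as 3 of the 27179 genes in the count tables, where they carry the Entrez identifiers 11826, 11828 and 11829. RNA was sequenced from 6 cell populations of untreated adult male C57BL/6 mice, with 3 libraries each and each library of a population from a different mouse. From the tracheas of mice 1 to 3 came basal stem cells (BSCs, sorted as positive for the nerve growth factor receptor NGFR) and non-basal cells (NGFR-negative). From the lungs of mice 4 to 6 came 2 airway populations that carry EpCAM and CD104 and differ in CD24 (CD24hi, labelled as rich in ciliated cells, and CD24lo, labelled as rich in club cells), alveolar cells (EpCAM-positive, CD104 low) and EpCAM-negative, non-epithelial cells. The series' own design note mentions airways but no trachea, so the organ of each library follows its sample label. The labels name no transgene, allele or treatment in any group. Trachea and lung also differed in mice, dissociation and depth (29317215 to 32993621 counted reads per tracheal library and 9811503 to 13208897 per lung library), so these cannot be told apart from the organ in any comparison between them.

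Aquaporins are membrane channels that let water follow osmotic gradients across epithelia and endothelia. Aqp1 is a water-selective channel known from the endothelium of lung capillaries and from red blood cells. Aqp3 is an aquaglyceroporin that passes glycerol as well as water and sits in the basolateral membrane of epithelial cells, and it is a familiar gene of basal keratinocytes. Aqp4 is a water-selective channel of basolateral membranes in airway epithelium and of astrocyte endfeet, where the dystrophin complex anchors it. Aqp5, which is no member of this trio, is the apical channel of alveolar type 1 cells and gland cells.

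The 250 bases before the transcription starts of Aqp1 and Aqp3 are shown because these genes had their highest levels at opposite ends, Aqp1 in EpCAM-negative cells and Aqp3 in BSCs. Both stretches come from RefSeq on GRCm38.p6, the assembly behind mm10, and are written 5′ to 3′ on the strand of the gene. Aqp1 lies on the plus strand at chr6:55336299-55348555 and its upstream stretch at chr6:55336049-55336298. Aqp3 lies on the minus strand at chr4:41092724-41098183 and its upstream stretch at chr4:41098184-41098433. Capitals mark matches to the letters TATAAA or GGGCGG on either strand.
Aqp1: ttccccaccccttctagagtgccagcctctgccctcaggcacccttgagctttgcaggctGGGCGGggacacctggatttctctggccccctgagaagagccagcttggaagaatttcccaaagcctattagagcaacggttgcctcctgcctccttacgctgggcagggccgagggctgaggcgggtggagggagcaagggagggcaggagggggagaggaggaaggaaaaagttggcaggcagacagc
Aqp3: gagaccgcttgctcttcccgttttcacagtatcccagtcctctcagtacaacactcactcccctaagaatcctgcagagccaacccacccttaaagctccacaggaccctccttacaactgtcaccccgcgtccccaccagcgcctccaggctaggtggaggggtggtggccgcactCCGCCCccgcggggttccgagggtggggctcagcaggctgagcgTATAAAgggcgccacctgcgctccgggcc
The match in Aqp1 is GGGCGG, 190 to 185 bases before the start. Aqp3 holds TATAAA at 29 to 24 bases before the start and GGGCGG on the opposite strand at 73 to 68 bases. Among the 32851 RefSeq stretches of this length, 12.4% held TATAAA and 32.7% held GGGCGG. The letters TGGAAA and TGACTCA, found in 18.6% and 4.5% of the stretches, were in neither. The GC content was 62.0% for Aqp1 and 64.0% for Aqp3, against a median of 52.4%.

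The labels of the populations were compared with marker genes, each list summed in CPM, counts scaled to an equal library total. Basal markers, such as Krt5 and Trp63, summed to 8006 to 8677 CPM in BSCs, to 2073 to 2724 in non-basal cells and to at most 414.8 in each lung library. Club cell markers summed to 250147 to 349607 CPM in CD24lo cells, ciliated markers to 5892 to 6684 CPM in CD24hi cells, alveolar type 2 markers to 176399 to 195984 CPM in alveolar cells and fibroblast markers to 26357 to 27817 CPM in EpCAM-negative cells. Each of these sums was highest in the population whose label it fits, but the populations were not free of other markers. Club cell markers also summed to 73583 to 78637 CPM in non-basal cells, 37957 to 50189 in CD24hi cells and 14513 to 16765 in BSCs. The sum of mesothelial markers was highest in non-basal cells, at 2822 to 2880 CPM, and no list was made for the non-basal label. Within that list, Msln and Upk1b were higher in non-basal than in EpCAM-negative cells (6.88 and 1.41 on the log2 scale, edgeR). Upk3b, Wt1 and Lrrn4 went the other way (-9.40, -4.24 and -6.28), and each gene kept its direction against CD24lo cells. This sum therefore does not stand for the list as a whole. Endothelial markers were also present in the lung populations, although the study's methods describe the removal of CD31-positive cells from alveolar cells. Their 6 genes summed to 202.7 to 693.2 CPM in CD24hi cells, 466.8 to 990.7 in CD24lo cells, 146.9 to 293.8 in alveolar cells and 472.2 to 727.2 in EpCAM-negative cells, against 7.20 to 8.47 in tracheal non-basal cells and 1.10 to 1.37 in BSCs, where 3 of the 6 were at 0.

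Levels are given as RPKM, reads scaled to the length of the gene and to the same adjusted library total. Differences are given as log2 fold changes with their standard errors (SE). Differences were tested with edgeR's quasi-likelihood test in all 15 pairs of populations, and a gene was called at an adjusted p under 0.05 over 17989 genes. The SE, and the 95% intervals built on it, were calculated back from the F statistic of that test. All 3 members passed the filter on low counts. Of the 45 values, 42 were called, and 13 of 15 were called for Aqp1, 15 of 15 for Aqp3 and 14 of 15 for Aqp4. The background was high, since between 48.2% and 72.2% of all genes tested were called in each pair. The share was 48.2% between BSCs and non-basal cells, 72.0% between BSCs and CD24hi cells, 63.8% between BSCs and CD24lo cells, 66.1% between BSCs and alveolar cells and 70.3% between BSCs and EpCAM-negative cells. From non-basal cells, 68.4% differed to CD24hi, 53.1% to CD24lo, 64.0% to alveolar and 71.6% to EpCAM-negative cells. Within the lung the shares were 55.0% between the airway populations, 61.9% between CD24hi and alveolar cells, 72.2% between CD24hi and EpCAM-negative cells, 48.4% between CD24lo and alveolar cells, 63.4% between CD24lo and EpCAM-negative cells and 61.9% between alveolar and EpCAM-negative cells. A call by itself therefore set the members little apart, and the sizes and the order of the levels are described for each. No such share over all genes is given for libraries that do not overlap, so a lack of overlap is description only.

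**Figure D1:**
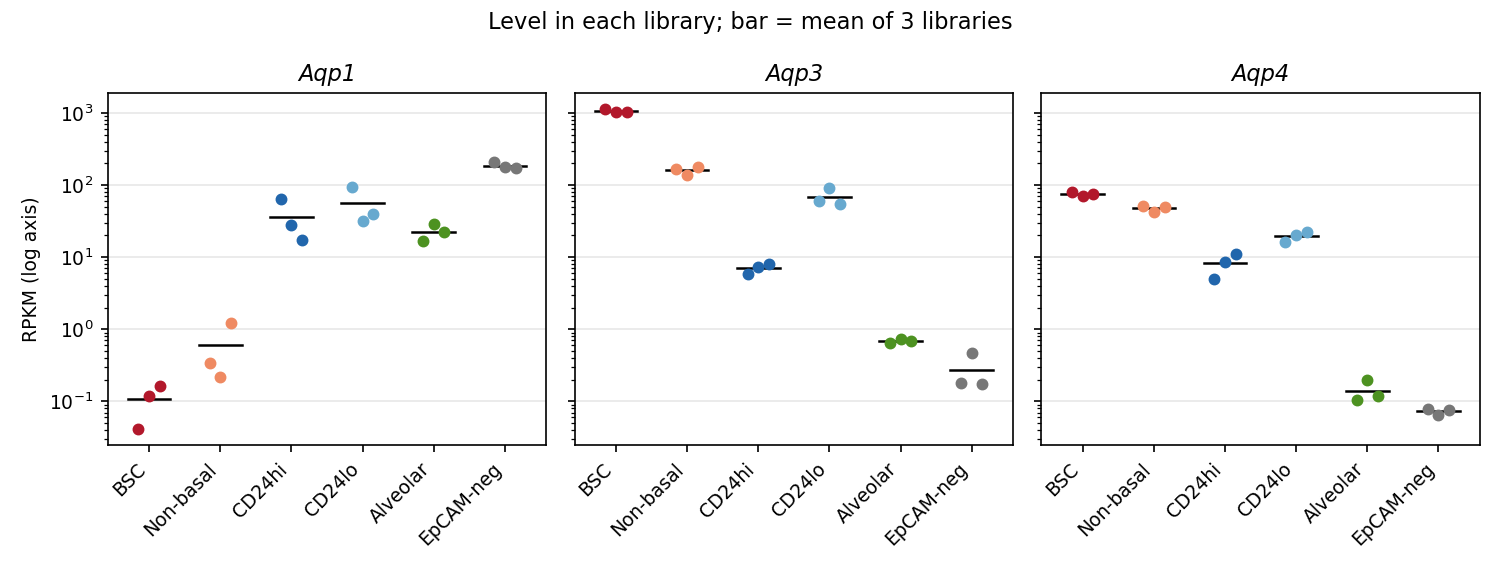
Level of Aqp1, Aqp3 and Aqp4 in RPKM, on a log axis, in each of the 18 libraries, with replicates 1 to 3 from left to right and a bar at the mean of the 3 libraries of a population. Aqp1 was highest in EpCAM-negative cells and lowest in BSCs, while Aqp3 and Aqp4 were highest in BSCs and lowest in EpCAM-negative cells.

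Aqp3, the aquaglyceroporin, was the most abundant of the trio in BSCs. Its level there was 1118, 1022 and 1030 RPKM in mice 1 to 3 (1056 ± 53.0, SD, n = 3), which ranked 32nd of the 17989 genes tested. Non-basal cells of the same mice held 166.2, 135.8 and 180.0 RPKM (160.7 ± 22.6), so every BSC library lay above every non-basal library. Aqp3 was 6.58-fold higher in BSCs (log2 fold change 2.72, SE 0.18, adjusted p = 1.66e-09, edgeR). In bulk RNA, fewer expressing cells and less RNA per cell cannot be told apart.

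In the lung, Aqp3 was ordered by population with no overlap between libraries of any pair. CD24lo airway cells held 60.8, 90.8 and 55.3 RPKM in mice 4 to 6 (69.0 ± 19.1, SD, n = 3), and CD24hi cells held 5.91, 7.27 and 7.94 RPKM (7.04 ± 1.04). CD24lo cells were thus well above CD24hi cells (log2 fold change of CD24hi against CD24lo -3.29, SE 0.19, adjusted p = 5.95e-10, edgeR). Alveolar cells held 0.650, 0.731 and 0.687 RPKM (0.689 ± 0.0405), from 12 to 14 reads per library. EpCAM-negative cells held 0.182, 0.468 and 0.173 RPKM (0.274 ± 0.168), from 4 to 10 reads.

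The full order of Aqp3 was BSC, non-basal, CD24lo, CD24hi, alveolar and EpCAM-negative cells, and each step was called. Non-basal tracheal cells were 2.33-fold above CD24lo cells (log2 fold change 1.22, SE 0.17, adjusted p = 1.45e-05, edgeR), and CD24hi cells were 10.2-fold above alveolar cells (3.35, SE 0.27, adjusted p = 4.21e-09). The last step, from alveolar to EpCAM-negative cells, was 2.52-fold (1.33, SE 0.43, adjusted p = 0.0129). That call rests on few reads and was lost without EpCAM-negative replicate 1 (1.12, adjusted p = 0.0519, edgeR) and with limma voom (1.41, adjusted p = 0.0859), while without EpCAM-negative replicate 2, the library with the most reads of its group, the difference was 1.94 (adjusted p = 0.00258, edgeR). BSCs exceeded alveolar cells by 1525-fold (10.57, SE 0.28, adjusted p = 2.96e-15, edgeR).

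Aqp4, the water-selective channel of airway epithelium, lies on the minus strand at chr18:15389394-15410982 (GRCm38). An antisense gene overlaps it but shares 0 exonic bases with it. Its level in BSCs was 79.0, 69.8 and 75.3 RPKM (74.7 ± 4.64, SD, n = 3), and in non-basal cells 52.0, 42.1 and 50.0 RPKM (48.0 ± 5.20). The groups did not overlap, but the step was 1.56-fold (log2 fold change 0.64, SE 0.19, adjusted p = 0.0109, edgeR), where Aqp3 fell 6.58-fold between the same cells. Without non-basal replicate 2, the library with the lowest Aqp4 of its group, the difference was 0.55 (adjusted p = 0.0530, edgeR) and no longer called.

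In lung airway cells Aqp4 stayed well above the level of alveolar cells. CD24lo cells held 16.2, 20.2 and 22.5 RPKM (19.7 ± 3.19, SD, n = 3) and CD24hi cells 4.94, 8.44 and 11.1 RPKM (8.18 ± 3.11), in mice 4 to 6. The CD24lo libraries were all higher, by 2.40-fold (log2 fold change of CD24hi against CD24lo -1.26, SE 0.20, adjusted p = 3.7e-05, edgeR), and in each of the 3 mice. Alveolar cells held 0.104, 0.199 and 0.119 RPKM (0.141 ± 0.0511), from 6 to 11 reads, and EpCAM-negative cells 0.0790, 0.0650 and 0.0749 RPKM (0.0730 ± 0.00721), from 4 to 5 reads. These last populations did not differ beyond the test's threshold (log2 fold change 0.93, 95% interval -0.38 to 2.25, adjusted p = 0.206, edgeR). At these few reads, their libraries did not overlap and Aqp4 was higher in alveolar cells in each of the 3 mice. CD24hi cells were 57.5-fold above alveolar cells (5.84, SE 0.32, adjusted p = 3.33e-11), and BSCs 525.5-fold (9.04, SE 0.32, adjusted p = 8.17e-14, edgeR).

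By their means, Aqp3 and Aqp4 shared the order of the 6 populations, though the last step, to EpCAM-negative cells, was not called for Aqp4. The size of the steps differed, a difference between genes that was not tested. Per length, Aqp3 was 13.7 to 14.6 times as abundant as Aqp4 in the BSC libraries and 3.20 to 3.60 times in the non-basal libraries. The ratio was 2.45 to 4.50 in CD24lo cells and 0.713 to 1.19 in CD24hi cells, where both channels stood at similar RPKM. Over the 18 libraries the log2 CPM values of Aqp3 and Aqp4 had a Pearson r of 0.959, which describes libraries that share populations, mice and organs.

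The level in each population was also set against the BSC mean, beside that of basal markers. Krt5, the basal keratin, stood in non-basal libraries at 6.72 to 8.45% of its BSC mean CPM, Trp63, the basal transcription factor, at 9.16 to 17.4% and Ngfr, the receptor of the sort, at 7.87 to 11.8%. Aqp3, at 12.9 to 17.0%, lay above Krt5, Ngfr and the keratin Krt14 (4.63 to 5.85%) and overlapped Trp63. Aqp4, at 56.4 to 69.6%, lay far above these markers, though Krt15, another basal keratin, also stood at 42.4 to 57.1%. In CD24lo cells Aqp3 stood at 5.23 to 8.59%, above Krt5 (2.08 to 3.90%), Krt14 (0.519 to 1.18%) and Krt15 (2.97 to 4.77%). It overlapped the ranges of Trp63 (6.95 to 12.2%) and Ngfr (5.79 to 8.57%), and Aqp4 stood at 21.7 to 30.2%. In CD24hi cells Aqp3 stood at 0.559 to 0.752%, again above Krt5 (0.222 to 0.243%), Krt14 (0.157 to 0.266%) and Krt15 (0.350 to 0.413%). There it lay within the ranges of Trp63 (0.485 to 1.38%) and Ngfr (0.465 to 1.00%), and Aqp4 stood at 6.62 to 14.9%. Basal markers thus moved in the direction of Aqp3 and Aqp4 through these populations, and their part in the levels was not tested.

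**Figure D2:**
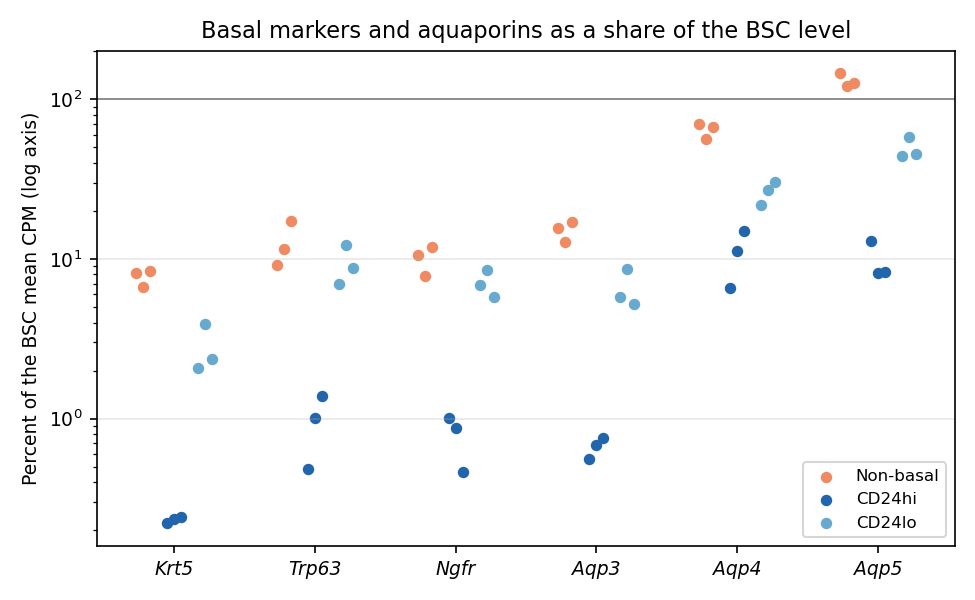
CPM of 3 basal markers (Krt5, Trp63, Ngfr) and 3 aquaporins as a percent of the BSC mean, on a log axis, with 1 point per library of the non-basal, CD24hi and CD24lo populations and a line at 100%. Aqp3 lay above Krt5 and Ngfr and overlapped Trp63 in non-basal cells. There Aqp4 stood at 56.4 to 69.6% of its BSC level, and Aqp5 exceeded its BSC level. The basal markers Krt14 and Krt15 are not drawn.

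Aqp1, the endothelial water channel, followed another order. EpCAM-negative cells had the highest level, 209.4, 176.9 and 173.3 RPKM in mice 4 to 6 (186.5 ± 19.9, SD, n = 3), and ranked Aqp1 269th of 17989 genes. CD24lo cells held 95.4, 32.2 and 39.2 RPKM (55.6 ± 34.6), CD24hi cells 63.7, 27.7 and 17.2 RPKM (36.2 ± 24.4) and alveolar cells 16.8, 28.4 and 22.4 RPKM (22.5 ± 5.82). Every EpCAM-negative library lay above every other library, while the 3 epithelial populations of the lung overlapped in part. EpCAM-negative cells were 3.35-fold above CD24lo cells (log2 fold change of CD24lo against EpCAM-negative -1.74, SE 0.48, adjusted p = 0.00405, edgeR), 5.15-fold above CD24hi cells (adjusted p = 0.000307) and 8.29-fold above alveolar cells (adjusted p = 4.24e-05). Replicate 1 narrowed the first pair of differences: the log2 fold change was -2.39 (adjusted p = 0.000395, edgeR) without CD24lo replicate 1, and that of CD24hi against EpCAM-negative cells went from -2.36 to -3.05 (adjusted p = 2.18e-05) without CD24hi replicate 1.

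Among the epithelial populations of the lung, the order of Aqp1 was uncertain. CD24hi and CD24lo cells did not differ beyond the threshold (log2 fold change -0.62, 95% interval -1.61 to 0.37, adjusted p = 0.282, edgeR), nor did CD24hi and alveolar cells (0.69, interval -0.32 to 1.69, adjusted p = 0.224). CD24lo cells were called 2.47-fold above alveolar cells (1.31, SE 0.48, adjusted p = 0.0324, edgeR). Replicate 1, from mouse 4, was the highest library of both airway populations and the lowest of the alveolar one, and these values shifted when its libraries were left out. Without CD24lo replicate 1 the difference from alveolar cells was 0.67 (adjusted p = 0.252, edgeR) and that of CD24hi from CD24lo cells 0.021 (adjusted p = 0.983). Without CD24hi replicate 1 the latter became -1.31 and was called (adjusted p = 0.0189), and that of CD24hi from alveolar cells was -0.0013 (adjusted p = 1). The call between CD24lo and alveolar cells was also lost without alveolar replicate 1 (1.13, adjusted p = 0.117) or replicate 3 (1.30, adjusted p = 0.0791, edgeR) and with DESeq2 (1.32, adjusted p = 0.0701). Within each of the 3 mice, Aqp1 was lower in CD24hi than in CD24lo cells, with log2 CPM ratios of -0.58, -0.22 and -1.19.

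The 6 endothelial markers followed Aqp1 only in part. Between alveolar and EpCAM-negative cells all 6 were called lower in alveolar cells, as was Aqp1. Between CD24hi and EpCAM-negative cells 0 of the 6 were called. Between CD24lo and EpCAM-negative cells 1 was called higher in CD24lo cells and 0 lower, whereas Aqp1 was lower in both airway populations. Cdh5, the cadherin of endothelial junctions, stood at 161.0, 76.5 and 42.5 CPM in CD24hi cells of mice 4 to 6, where Aqp1 stood at 175.9, 76.5 and 47.6 CPM. The ratio of Aqp1 to Cdh5 CPM was 1.00 to 1.12 in CD24hi cells, 1.14 to 1.68 in CD24lo cells and 0.973 to 1.21 in alveolar cells, although Aqp1 itself ranged from 46.3 to 263.3 CPM among these 9 libraries. In EpCAM-negative cells the ratio was 2.81 to 3.73, above each epithelial library. Kdr, a receptor of vascular endothelial growth factor, differed from Cdh5. It stood at 231.9, 238.5 and 230.3 CPM in CD24lo cells of mice 4 to 6, where Aqp1 ranged from 88.9 to 263.3 CPM, and its mean was lower in EpCAM-negative cells, at 101.1 CPM. The endothelial sum was 693.2 CPM in CD24hi and 990.7 CPM in CD24lo replicate 1, against 202.7 to 325.9 and 466.8 to 495.3 CPM in the other replicates. Markers of red blood cells, which also carry Aqp1, summed to 79.5 to 660.6 CPM in EpCAM-negative cells and to at most 71.5 CPM elsewhere in the lung. The part of endothelial and red blood cells in the Aqp1 levels was not tested.

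**Figure D3:**
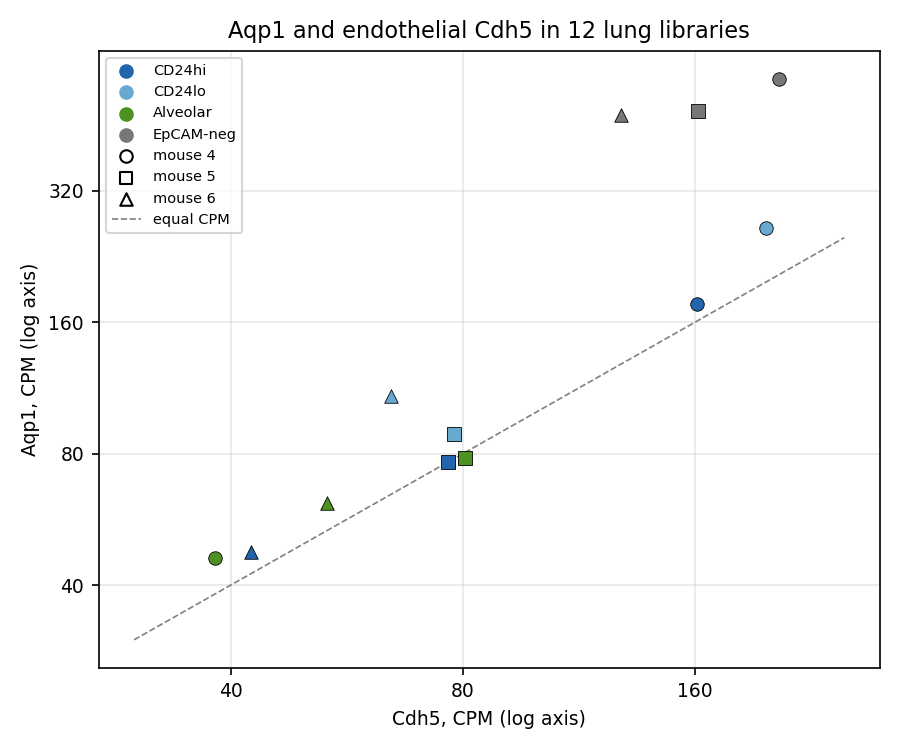
Aqp1 against Cdh5, both in CPM on log axes, in the 12 lung libraries, with colour for the population, shape for the mouse and a dashed line at equal CPM. The 9 epithelial libraries lay close to the line, with ratios from 0.973 to 1.68, and the 3 EpCAM-negative libraries above it, with ratios from 2.81 to 3.73.

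In the trachea Aqp1 was near the limit of detection. BSC libraries held 4, 12 and 16 reads of Aqp1 (0.108 ± 0.0621 RPKM, SD, n = 3) and non-basal libraries 28, 17 and 105 reads (0.600 ± 0.557 RPKM). The non-basal libraries were all higher, by 5.50-fold (log2 fold change of BSC against non-basal -2.46, SE 0.87, adjusted p = 0.0267, edgeR), with replicate 3 far above the other 2. Without that library the difference was -1.36 (adjusted p = 0.266, edgeR), and it was not called without BSC replicate 1 (-2.08, adjusted p = 0.0880) or 2 (-2.54, adjusted p = 0.0573), with limma voom (-2.23, adjusted p = 0.249) or with library size alone (-2.12, adjusted p = 0.0505). Both tracheal populations were below each lung population. Alveolar cells, for example, were 202.8-fold above BSCs (log2 fold change of BSC against alveolar -7.66, SE 0.73, adjusted p = 5.41e-08, edgeR).

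**Figure D4:**
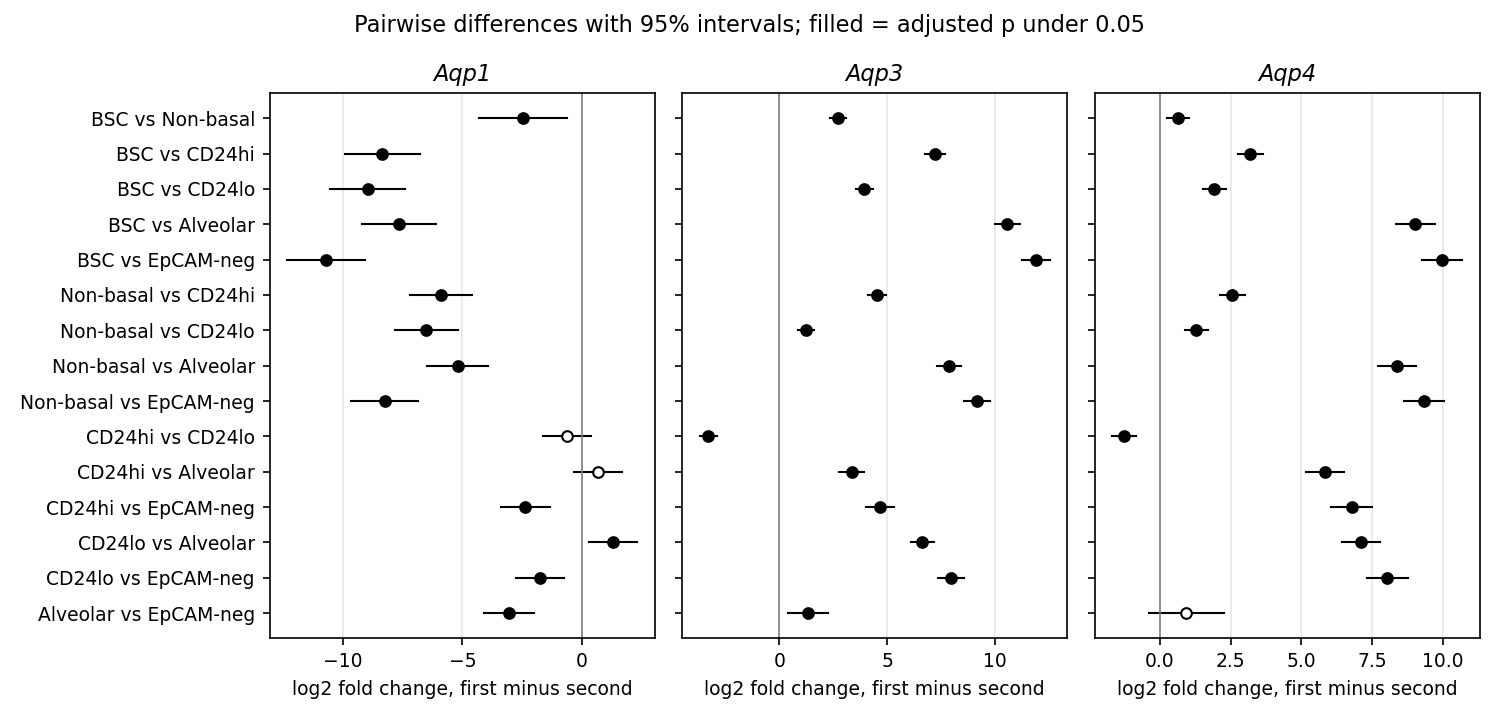
Log2 fold change of Aqp1, Aqp3 and Aqp4 in all 15 pairs of populations, first minus second, with 95% intervals; filled points were called at an adjusted p under 0.05 in edgeR. The intervals of 3 values cross 0: Aqp1 between the airway populations, Aqp1 between CD24hi and alveolar cells and Aqp4 between alveolar and EpCAM-negative cells.

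The place of the trio among the 12 mouse aquaporins differed by population. Aqp3 made up 68.6% ± 0.322 (SD, n = 3) of the summed aquaporin RPKM in BSCs, and Aqp5 a further 26.4% ± 0.507. In non-basal cells Aqp5 made up 71.1% ± 2.64, Aqp3 21.5% ± 2.21 and Aqp4 6.43% ± 0.231. In alveolar cells Aqp5 made up 93.5% ± 1.76 and Aqp1 5.97% ± 1.66. EpCAM-negative cells were at 90.6% ± 0.220 Aqp1. The airway populations were mixed, with 36.3% ± 12.6 Aqp1, 8.33% ± 3.39 Aqp3, 10.1% ± 5.92 Aqp4 and 43.5% ± 3.10 Aqp5 in CD24hi cells, and 16.0% ± 9.55, 19.6% ± 3.59, 5.71% ± 1.45 and 57.2% ± 6.04 in CD24lo cells.

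**Figure D5:**
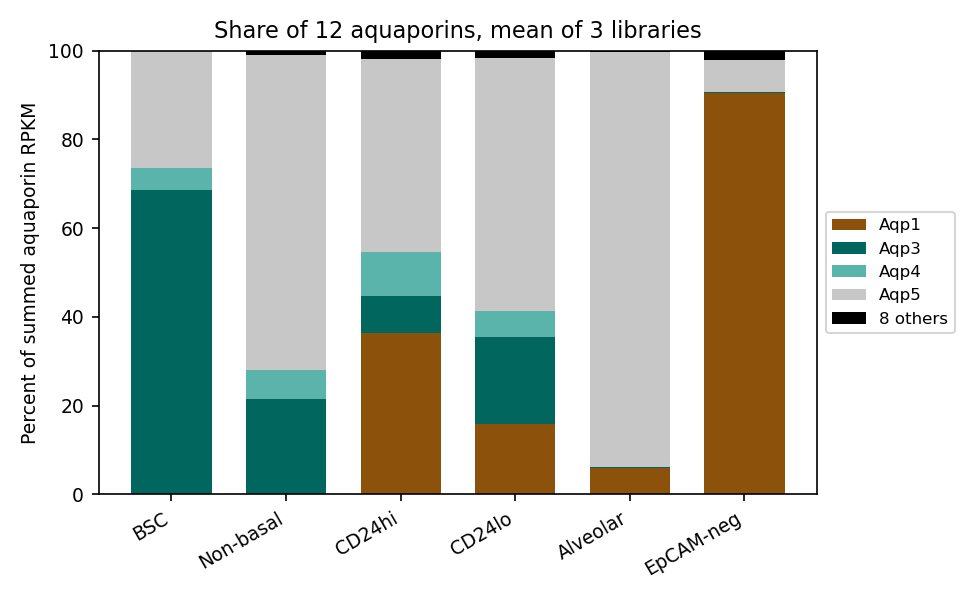
Share of the summed RPKM of 12 aquaporins, in percent, as the mean of 3 libraries per population, for Aqp1, Aqp3, Aqp4, Aqp5 and the 8 others together. Aqp3 led in BSCs, Aqp1 in EpCAM-negative cells and Aqp5 in the other 4 populations.

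Of the 9 other aquaporins, 5 passed the filter on low counts, and Aqp8 and Aqp12 had no read in any library. BSCs were lower than non-basal cells in 4 of the 5 and higher in 0, and the median of the 5 was -1.36 on the log2 scale, beside -0.02 for all genes. That median is the value of Aqp2, which stood at only 0.317 RPKM in BSCs and 0.821 in non-basal cells. Aqp9, also called lower, had 1 to 2 reads per BSC library. Aqp11, a channel of the endoplasmic reticulum, was lower in BSCs (-1.78, SE 0.19, adjusted p = 5.02e-07, edgeR). Aqp5 stood at 405.9 ± 22.8 RPKM in BSCs and 531.1 ± 52.3 in non-basal cells (-0.39, SE 0.15, adjusted p = 0.0413), a call that was lost with library size alone (-0.04, adjusted p = 0.837). Between the airway populations, 3 of the 5 were lower in CD24hi cells and 0 higher, and the list had a median of -1.76 against -0.06 for all genes. Aqp5 was among them (-2.33, SE 0.16, adjusted p = 2.42e-09, edgeR), as was Aqp11 (-1.76, SE 0.23, adjusted p = 3.55e-06), in the direction of Aqp3 and Aqp4. The remaining one, Aqp2, had 2 to 8 reads per CD24hi library.

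Partners that anchor Aqp4 or work beside it were counted as a list of 11 genes, all tested. Between BSCs and non-basal cells 6 were higher and 3 lower in BSCs, with a median of 0.30, and between the airway populations 4 were higher and 4 lower in CD24hi cells, with a median of -0.13. Agrn encodes agrin, a matrix proteoglycan that binds dystroglycan. Agrn was higher in BSCs than in non-basal cells (1.53, SE 0.15, adjusted p = 2.13e-07, edgeR) and lower in CD24hi than in CD24lo cells (-1.52, SE 0.15, adjusted p = 1.75e-07). Trpv4, an osmosensitive calcium channel, was higher in BSCs than in non-basal cells (1.15, SE 0.15, adjusted p = 4.95e-06, edgeR) and than in alveolar cells (7.73, SE 0.23, adjusted p = 1.25e-14). Its level was 70.0 ± 4.28 RPKM in BSCs and 0.326 ± 0.0745 in alveolar cells (SD, n = 3), beside 74.7 and 0.141 for Aqp4, and in EpCAM-negative cells 1.00 ± 0.404 beside 0.0730 for Aqp4. Other genes of the list moved the other way from Aqp4 in the trachea. Dtna, a dystrobrevin of the dystrophin complex, was lower in BSCs than in non-basal cells (-1.89, SE 0.13, adjusted p = 3.5e-09, edgeR), at 1.37 and 5.07 RPKM. The other dystrobrevin of the list, Dtnb, was higher in BSCs (0.30, SE 0.11, adjusted p = 0.0272, edgeR), at 18.5 and 15.1 RPKM. Kcnj10, a potassium channel found with Aqp4 in astrocytes, was lower in BSCs (-1.48, SE 0.34, adjusted p = 0.00166, edgeR), at only 0.137 and 0.383 RPKM.

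For Aqp3, 9 genes of glycerol release and use were counted, all tested. Between BSCs and non-basal cells 3 were higher and 5 lower in BSCs, with a median of -0.63, and between BSCs and alveolar cells 4 were higher and 5 lower, with a median of -1.57. Gpd1, the cytosolic glycerol-3-phosphate dehydrogenase, was lower in BSCs than in non-basal cells (-4.74, SE 0.15, adjusted p = 1.09e-12, edgeR) and than in alveolar cells (-5.53, SE 0.16, adjusted p = 5.46e-15), opposite to Aqp3. Gpd2, of the same list, was higher in BSCs in both comparisons (0.34, SE 0.10, adjusted p = 0.00878, edgeR, and 2.08, SE 0.11, adjusted p = 9.2e-12), in the direction of Aqp3. Of 9 genes of the response to osmotic stress, 8 had reads in BSCs, non-basal or alveolar cells. Among these 8, BSCs exceeded non-basal cells in 4 and fell below them in 2 (median 0.23), and exceeded alveolar cells in 6 and fell below them in 2 (median 0.71). Slc6a6, the taurine transporter, was higher in BSCs in both comparisons (1.55, SE 0.10, adjusted p = 1.45e-09, edgeR, and 2.63, SE 0.11, adjusted p = 4.19e-13). The 2 genes lower in BSCs were the same in both comparisons, Akr1b3 (-0.88 and -1.39) and Stk39 (-0.92 and -0.86). The median over all genes was -0.02 between BSCs and non-basal cells, -0.09 between BSCs and alveolar cells and -0.06 between the airway populations.

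Genes with the most similar pattern were found by Pearson's r of log2 CPM over the 18 libraries, among the 12119 genes whose mean reached 5 CPM. For Aqp1 they were Tspan18 (r = 0.990), Fgd5, Ldb2, Hecw2 and Tek (r = 0.989), the last a receptor kinase of endothelial cells. For Aqp3 they were Krt17 and Krt5 (both r = 0.992), keratins of basal cells, with Dlk2, Dsc2, a desmosomal cadherin, and Hcar2 (r = 0.988). For Aqp4 they were Acpp (r = 0.993), Mboat1, Dmrt2, Calml3 and Tnfrsf21 (r = 0.987). These libraries share mice, populations and depth by organ. Krt5 stood at 3369 CPM in BSCs and 262.4 in non-basal cells, and Hcar2 at 222.2 and 120.1 CPM. Acpp stood at 166.8 CPM in BSCs and 136.3 in non-basal cells, and Calml3 at 203.1 and 294.8 CPM.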

How the data were processed

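RNA was sequenced from sorted cells of 6 mouse populations in 18 libraries. Single-end reads were mapped by the authors to the mm10 genome (Rsubread) and assigned to Entrez genes by featureCounts with its built-in RefSeq annotation. The deposited counts are raw and unscaled, and each gene has a deposited length. Populations and mouse numbers came from the sample labels. Symbols, positions and upstream sequences came from RefSeq (25275 identifiers matched). No pair of replicate libraries agreed within counting noise (chi-square per degree of freedom at least 3.5).

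The 17989 genes that exceeded a CPM of 0.2, here without TMM factors, in 3 or more libraries were kept. TMM factors and the quasi-likelihood test of edgeR 4.0.16 (R 4.3.3) were applied to all libraries together, and p-values were adjusted per pair by the Benjamini-Hochberg method. RPKM used the deposited lengths. The workflow was tested on simulated data in which only BSCs differed, in few genes, so scaling under many differences was not tested. Alternatives were DESeq2 1.42.0, limma 3.58.1 (voom), library size alone or RLE factors, other filters, a fit of each pair alone, mouse as a block and leaving out each library.

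Libraries with the same mouse number come from one animal by the labels. Correlations of their deviations from the population means were -0.059 to 0.336 over 21 pairs of libraries, against -0.053 to 0.064 over 24 pairs from different mice. Genes named were the members, every gene of the lists and the 5 most similar genes per member. The members and lists were chosen with earlier results of these data known. The RNA of all replicates is from separate mice, but the 4 lung populations share mice 4 to 6.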

Additional observations from a re-analysis of the deposited data

How the results depend on the processing

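Over the 45 differences, 606 alternative values were computed. Of these, 591 kept the direction and the side of the threshold, 12 lost a call, 1 gained one and 2 changed sign. The lost calls all concern Aqp1 at low levels or in lung epithelium, Aqp4 between BSCs and non-basal cells, or Aqp3 at few reads. Aqp1 between BSCs and non-basal cells was -2.23 with limma voom and -2.12 with library size alone, and -2.86 to -1.36 when libraries were left out. Leaving out libraries gave 0.55 to 0.70 for Aqp4 between BSCs and non-basal cells, -1.31 to 0.021 for Aqp1 between CD24hi and CD24lo cells (0.0214 without CD24lo replicate 1), -0.0013 to 1.02 for Aqp1 between CD24hi and alveolar cells, 0.67 to 1.60 for Aqp1 between CD24lo and alveolar cells (1.32 with DESeq2) and 1.11 to 1.94 for Aqp3 between alveolar and EpCAM-negative cells (1.41 with limma voom). The cause of these shifts was not tested. Mouse as a replicate block, in the pairs within 1 organ, changed no call of a member: Aqp1 was -2.37 (adjusted p = 0.0163, edgeR) between BSCs and non-basal cells and -0.64 (adjusted p = 0.142) between the airway populations. Library size alone gave levels of 1248 RPKM for Aqp3 and 88.3 for Aqp4 in BSCs and 0.615 for Aqp3 in alveolar cells. It moved the median of all genes between BSCs and non-basal cells from -0.017 to 0.31, and the share of calls higher in BSCs from 45.5% to 72.2%. That share, higher in the first population, went from 45.4% to 63.3% for BSCs against CD24lo cells, from 46.1% to 64.5% for BSCs against alveolar cells, from 46% to 34% for non-basal against CD24hi cells, from 50.5% to 68.4% between the airway populations and from 49.2% to 65.4% for CD24hi against alveolar cells. With it, the call of Trpv4 between the airway populations (-0.59) was lost (-0.31, adjusted p = 0.125, edgeR), and that of Aqp5 between BSCs and non-basal cells was lost without non-basal replicate 1 too (-0.30, adjusted p = 0.158). Low counts of Aqp3 and Aqp4 in alveolar and EpCAM-negative cells limit the precision there. The intervals are for differences of population means among these mice, from a fit of all libraries with no term for mouse.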
